A study of Homo sapiens with 26 samples.

Results

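Mitochondrial ribosomal protein genes were taken as every row of the deposited FPKM table whose gene symbol is MRPL or MRPS followed by digits and, where present, a letter from A to C, in all 26 libraries. This gave 85 rows with 76 symbols out of the 63129 rows of the table. Of these, 8 rows lie on alternative scaffolds (6 of them for MRPS18B) and were set aside. The other 77 rows, 1 per symbol except for MRPS17 with 2, passed the filter on low values in both cell lines, so each of them was tested. They divide into 49 rows for proteins of the large subunit, 27 rows for proteins of the small subunit, MRPS17 with both of its rows, and 1 row for MRPS36, which carries a mitoribosomal symbol but is now known as a subunit of the 2-oxoglutarate dehydrogenase complex. MRPL57, listed in the table as MRP63, lies outside the symbol rule.

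The libraries came from A375, a melanoma line, and NOMO-1, an acute myeloid leukaemia line. CPI203 is a small molecule that blocks the acetyl-lysine pockets of BET bromodomain proteins, which help RNA polymerase to leave the promoters of many genes. Tolerant cells are the labels' resistant derivatives: A375 clone 1 and clone 4, and 1 NOMO-1 derivative. Tolerant clone 1, tolerant clone 4 and parental A375 cells received 1 uM CPI203 or DMSO, the solvent, for 6 h, or were taken untreated at 0 h. Tolerant and parental NOMO-1 cells received 1 uM CPI203 or DMSO for 24 h. Each of the 13 groups has 2 libraries. The labels do not say that replicates were separate cultures, so p-values measure only the spread between these libraries, which may be technical. Each A375 tolerant population is 1 clone, so what a clone shows cannot be told apart from what tolerant cells share. The same limit holds for NOMO-1, where tolerant cells are 1 derivative.

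The mitochondrial ribosome translates the few proteins encoded by mitochondrial DNA, all of them subunits of the respiratory chain and ATP synthase. Its RNAs come from the mitochondrial genome, but every one of its proteins is encoded in the nucleus, made in the cytosol and imported. Many of the proteins have a counterpart in bacterial ribosomes, and others were added during the evolution of mitochondria. Genes of this kind commonly have promoters without a TATA box, and NRF1, GABP, YY1 and MYC are factors known to act on nuclear genes for mitochondrial proteins.

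Promoter sequences from RefSeq (GRCh38.p14, from 250 bases before to 50 after the start of the gene) were found for 67 of the 76 symbols. MRPL24 and MRPL3 are shown because they had the largest falls with CPI203 in parental NOMO-1 cells, MRPL22, MRPS18B and MRPS18C because they were lower with CPI203 in all 5 cell populations, and MRPS6 because it was higher in both parental lines. The windows are chr1:156741039-156741338 on the minus strand for MRPL24, chr3:131502922-131503221 on the minus strand for MRPL3, chr5:154940823-154941122 on the plus strand for MRPL22, chr6:30617590-30617889 on the plus strand for MRPS18B, chr4:83455808-83456107 on the plus strand for MRPS18C and chr21:34073328-34073627 on the plus strand for MRPS6. Capitals mark letters that match a GABPA (CCGGAAG), YY1 (AAGATGGC) or E-box (CACGTG) motif, the last being the core bound by MYC and related factors.
MRPL24: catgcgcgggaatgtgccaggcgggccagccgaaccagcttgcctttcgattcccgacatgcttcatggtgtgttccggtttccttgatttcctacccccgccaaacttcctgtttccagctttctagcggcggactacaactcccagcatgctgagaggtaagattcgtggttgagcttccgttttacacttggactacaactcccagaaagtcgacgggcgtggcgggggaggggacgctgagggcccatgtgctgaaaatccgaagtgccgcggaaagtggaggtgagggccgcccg
MRPL3: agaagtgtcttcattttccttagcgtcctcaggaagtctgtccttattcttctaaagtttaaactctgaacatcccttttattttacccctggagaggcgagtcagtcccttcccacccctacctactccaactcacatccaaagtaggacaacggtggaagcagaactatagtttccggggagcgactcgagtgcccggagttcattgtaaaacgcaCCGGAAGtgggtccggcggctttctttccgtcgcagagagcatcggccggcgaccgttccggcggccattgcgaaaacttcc
MRPL22: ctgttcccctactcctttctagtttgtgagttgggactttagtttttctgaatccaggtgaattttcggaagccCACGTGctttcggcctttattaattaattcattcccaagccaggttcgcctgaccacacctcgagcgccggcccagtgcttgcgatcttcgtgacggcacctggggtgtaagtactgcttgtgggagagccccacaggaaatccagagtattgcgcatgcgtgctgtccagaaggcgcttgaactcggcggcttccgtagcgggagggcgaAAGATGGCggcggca
MRPS18B: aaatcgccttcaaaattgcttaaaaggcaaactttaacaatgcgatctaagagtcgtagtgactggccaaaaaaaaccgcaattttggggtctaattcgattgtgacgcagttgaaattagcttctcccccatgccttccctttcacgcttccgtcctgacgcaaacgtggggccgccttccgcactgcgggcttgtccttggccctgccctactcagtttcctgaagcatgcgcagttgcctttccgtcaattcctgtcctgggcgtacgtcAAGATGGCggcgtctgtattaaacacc
MRPS18C: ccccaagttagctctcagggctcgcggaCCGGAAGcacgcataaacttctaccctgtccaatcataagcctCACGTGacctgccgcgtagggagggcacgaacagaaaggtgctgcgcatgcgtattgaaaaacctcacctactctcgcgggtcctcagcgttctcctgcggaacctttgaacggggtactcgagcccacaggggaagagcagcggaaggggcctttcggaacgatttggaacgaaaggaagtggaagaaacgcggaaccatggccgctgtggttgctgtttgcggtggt
MRPS6: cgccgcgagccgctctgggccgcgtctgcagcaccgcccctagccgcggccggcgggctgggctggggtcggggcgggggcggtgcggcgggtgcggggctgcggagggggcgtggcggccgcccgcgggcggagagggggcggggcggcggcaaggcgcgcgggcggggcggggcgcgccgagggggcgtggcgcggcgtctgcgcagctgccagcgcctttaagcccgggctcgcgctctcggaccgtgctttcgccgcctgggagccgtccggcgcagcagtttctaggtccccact

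In these windows the GABPA letters begin at position -32 of MRPL3 and at -222 of MRPS18C, counted from the start of the gene. The YY1 letters begin at 36 of MRPL22 and at 24 of MRPS18B, in both cases just past the start. E-box letters begin at -176 of MRPL22 and at -179 of MRPS18C. The windows of MRPL24 and MRPS6 hold none of the motifs searched, which says only that these letters are not in these windows. Those printed do not stand for all members lower in every population. Among the ones not printed, MRPS35 holds none of the motifs searched and MRPS15 only TATA letters, whereas MRPL16 and MRPL45 hold others.

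Over all member promoters, the GABPA and YY1 letters were common. With a match on either strand counted, CCGGAAG was found for 29 of the 67 members (43.3%), against 12.2% of all symbols in the RefSeq table, and AAGATGGC for 21 (31.3%), against 3.52%. The 27305 symbols of that table were not limited to the genes tested here. The NRF1 motif (GCGCA, any base, GCGC) was found for 8 members (11.9%), against 6.98%, and the E-box for 9 (13.4%), against 8.77%. TATAAA was found for 3 members (4.48%), against 14.0%. At least 1 of the first 4 motifs was present for 48 members (71.6%), against 26.2% of all symbols. The GABPA and YY1 letters can share AAG where they run together. These matches are a description of the letters and not of factor binding.

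Transcript levels are given as FPKM, fragments scaled to the length of the transcript and to the size of the library, as the authors estimated them. The table holds no counts, so the depth behind a value is unknown. Summed FPKM over all genes was between 501933 and 637916 in A375 libraries and between 417391 and 488682 in NOMO-1 libraries, and 14433 to 15483 genes reached 1 FPKM. The melanocyte markers summed to 152 to 416 FPKM in A375 libraries, with 3 of 8 at a median of 1 FPKM or more and TYR at 0, against 1.34 to 5.05 FPKM in NOMO-1 libraries. The myeloid markers summed to 145 to 1841 FPKM in NOMO-1 libraries, with 7 of 8 at a median of 1 FPKM or more, against 3.73 to 42.6 FPKM in A375 libraries. The 15 mitochondrially encoded genes looked for are listed at 0 in the table, so the RNAs of the mitochondrial genome were not analysed here.

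Libraries of 4 groups disagreed in the level of nearly all members at once. Replicate 1 was above replicate 2 for 71 of 77 members in A375 clone 4 with DMSO (median absolute log2 difference 0.47), for 71 in parental A375 with DMSO (0.26) and for 72 in parental NOMO-1 with DMSO (0.25), and replicate 2 was above replicate 1 for 68 in A375 clone 4 with CPI203 (0.24). In the other 9 groups this median difference lay between 0.04 and 0.10. In size, the disagreement was not particular to the members. Over all genes the median absolute difference was 0.28, 0.22, 0.17 and 0.22 in these 4 groups, in the same order, against 0.07 to 0.12 in the other 9. In direction it was less general. The median of replicate 2 minus replicate 1 was -0.47, -0.25, -0.25 and 0.21 for the members. Over all genes it was 0, 0.02, -0.05 and -0.005, so the typical gene shifted little where the members shifted together. Sums of cytosolic ribosomal proteins and of nuclear respiratory chain genes differed between the replicates in the same direction as the members. Results for A375 are also given without 3 libraries that stood apart: replicate 1 of parental cells with DMSO, replicate 1 of clone 4 with DMSO, and replicate 2 of clone 4 with CPI203. They were picked after the data were seen. Each had the higher member sum of its pair (4367 against 3662, 5536 against 3985, and 3967 against 3259 FPKM). With 2 libraries a group, the values cannot show which of a pair is out of line. Counts without these 3 are thus a description and no check of the results. Parental NOMO-1 cells with DMSO were not treated this way.

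Summed over the members, levels made up 0.517% to 1.13% of all FPKM in the 13 groups (means of 2 libraries), and CPI203 libraries were below their DMSO libraries in all 5 populations. The summed level was 2821 ± 100 FPKM with CPI203 and 4605 ± 533 with DMSO in parental NOMO-1 cells (SD, n = 2 each), a ratio of 0.613 ± 0.074. In tolerant NOMO-1 cells it was 4122 ± 195 with CPI203 and 4984 ± 91.8 with DMSO, a ratio of 0.827 ± 0.042. In both NOMO-1 populations the highest CPI203 library lay below the lowest DMSO library. The ratios were 0.842 ± 0.051 in A375 clone 1, 0.759 ± 0.204 in clone 4 and 0.774 ± 0.096 in parental A375 cells. In clone 4 the groups came close, with CPI203 libraries at 3259 and 3967 FPKM and DMSO libraries at 5536 and 3985 FPKM. As a share of all FPKM, the members made up 0.664% with CPI203 and 0.975% with DMSO in parental NOMO-1 cells, and 0.963% and 1.13% in tolerant NOMO-1 cells. FPKM are scaled to the size of the library, so a lower value is a lower share of the RNA, and a change of total RNA per cell would not be seen. These are bulk samples, so fewer cells with high levels and a lower share in each cell cannot be told apart.

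**Figure D1:**
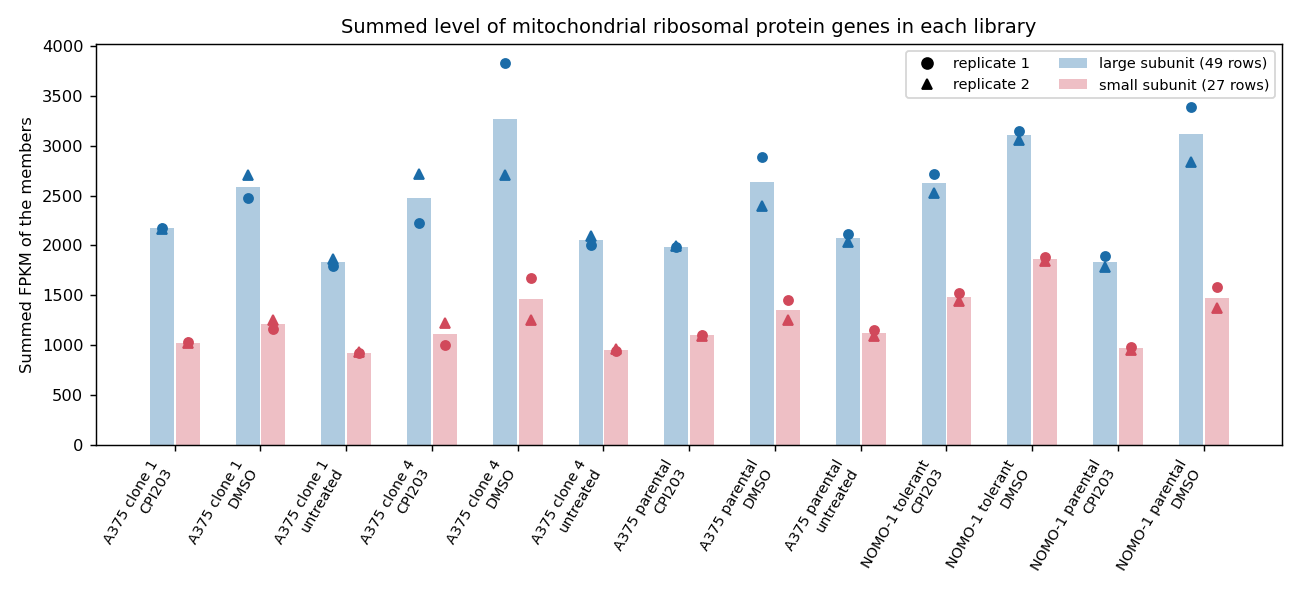
Summed FPKM of the large-subunit (blue) and small-subunit (red) members in each of the 13 groups; bars are means of 2 libraries, circles replicate 1 and triangles replicate 2. The lowest NOMO-1 bars are those of parental cells with CPI203 (2821 FPKM for all members), and the libraries of A375 clone 4 with DMSO lie far apart (5536 and 3985 FPKM).

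The plot of summed levels shows lower mean sums with CPI203 than with DMSO for both subunits in each population, though not in equal proportion. MRPS15 weighs heavily in tolerant NOMO-1 cells. Its highest value there with DMSO was 556 FPKM, where the small-subunit sums were 1888 and 1846 FPKM. The ratio of large-subunit to small-subunit FPKM was 1.90 ± 0.02 with CPI203 and 2.11 ± 0.05 with DMSO in parental NOMO-1 cells, 1.77 ± 0.03 and 1.66 ± 0.01 in tolerant NOMO-1 cells, and 1.81 ± 0.02 and 1.95 ± 0.05 in parental A375 cells.

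Single members differed widely in level. By the mean over all 18 A375 libraries MRPL51 was highest (lowest library 110.8, median 154, highest 269 FPKM), followed by MRPL33 (75.5, 108 and 197), MRPS6 (58.3, 78.7 and 194) and MRPS34 (66.6, 92.2 and 168). MRPS6 owes its place before MRPS34 to the parental libraries, with a mean of 188 FPKM with CPI203, 147 with DMSO and 133 untreated, whereas group means in the clones lay between 59.7 and 97.8 FPKM. The lowest were the second MRPS17 row (0.112, 1.03 and 2.10), MRPL30 (6.10, 9.31 and 12.2), MRPL44 (10.6, 12.3 and 17.4) and MRPS17 (7.42, 11.98 and 20.6). In NOMO-1 libraries MRPS15 had the highest mean (lowest library 30.4, median 187, highest 556 FPKM), followed by MRPL33 (66.7, 139 and 303), MRPL37 (52.5, 129 and 188) and MRPL52 (64.9, 105 and 127). The second MRPS17 row (1.04, 1.27 and 1.69), MRPL30 (6.57, 8.23 and 10.9), MRPL50 (6.66, 7.77 and 12.2) and MRPS17 (5.11, 10.7 and 12.8) were the lowest. The ranges of neighbours in these orders overlap, other than that of the second MRPS17 row, which lies below all others in both lines. MRPS15 ranged over 18.3-fold between NOMO-1 libraries, whereas MRPS10 ranged over 1.1-fold. Some of these levels are uncertain: 32 members have pseudogene rows in the table, of which MRPL3P1 reached 35.8 FPKM and MRPS36P1 28.5 FPKM, and 33 members overlap another row that reached 5 FPKM.

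**Figure D2:**
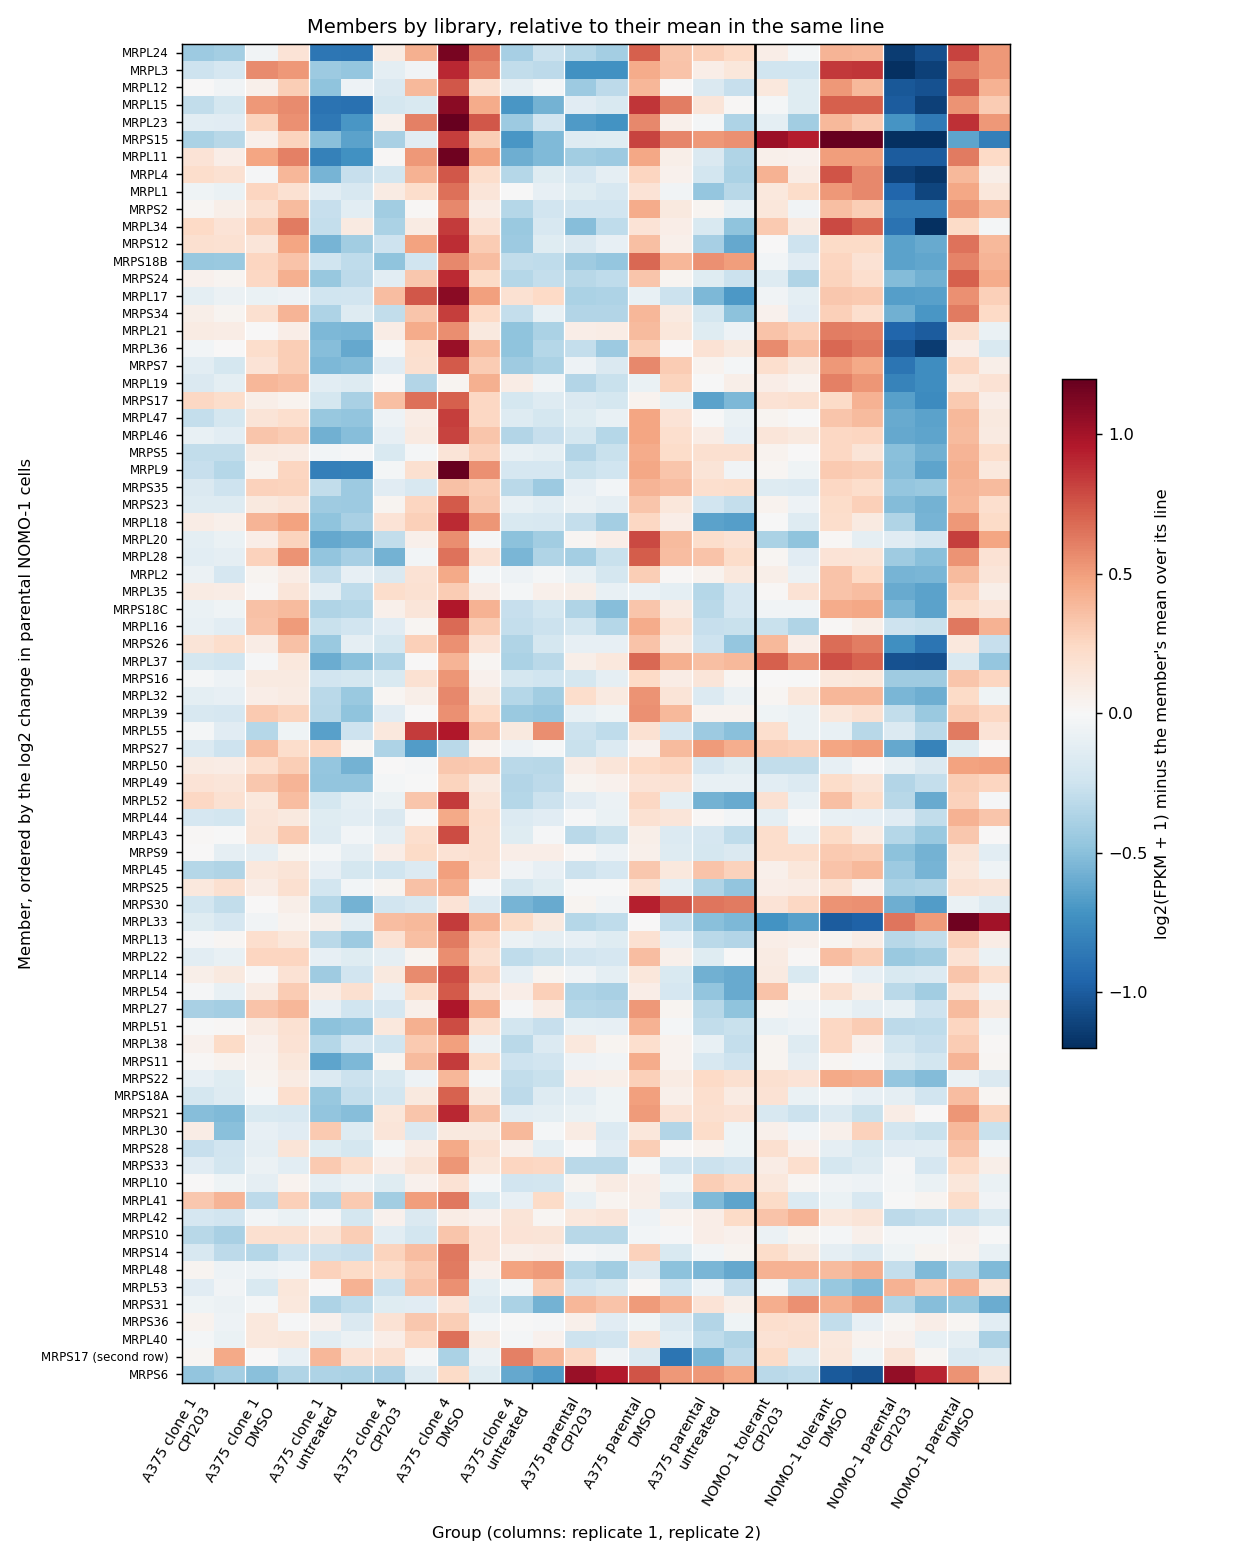
Each of the 77 rows (down) in each of the 26 libraries (across, replicate 1 left of replicate 2 in each group), as log2(FPKM + 1) minus the row's mean over the libraries of its line; the colours saturate at 1.2 either way. Most rows are blue in the CPI203 libraries of parental NOMO-1 cells, and the MRPS6 row at the foot is the one called higher there.

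The question put to the NOMO-1 libraries was how CPI203 changed these transcripts in cells that had and had not become tolerant. In parental cells 63 of the 77 members were lower with CPI203 than with DMSO and 1, MRPS6, was higher (limma, Benjamini-Hochberg adjusted p below 0.05). Of all 16753 genes tested, 33% were lower and 27% higher. The median change of the members was -0.65 on the log2(FPKM + 1) scale, which understates the change of genes at low levels, and that of all genes was -0.05. Both subunits were affected: 42 of 49 large-subunit members (median -0.65) and 21 of 27 small-subunit members (median -0.72) were lower. Of the members with a bacterial counterpart, 40 of 47 were lower (median -0.82), and of those without, 23 of 29 (median -0.54). MRPS18A and MRPS18B were counted here among those without, although they are relatives of bacterial S18. The difference between the classes was not tested. Leaving out 1 library at a time gave 56 to 66 called members.

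The largest falls were in proteins of the large subunit. MRPL24, whose bacterial counterpart L24 starts the folding of the large-subunit RNA (hg19 chr1:156707094-156711382), stood at 15.4 and 16.4 FPKM with CPI203, against 62.3 and 50.6 FPKM with DMSO. Its change was -1.76 ± 0.10 on the log2 scale (SE, adjusted p = 1.62e-06 by limma). MRPL3, counterpart of bacterial L3 (hg19 chr3:131181055-131221827), stood at 24.8 and 27 FPKM with CPI203, against 92.7 and 86.4 FPKM with DMSO, a change of -1.75 ± 0.07 (adjusted p = 3.2e-07 by limma). In both genes the CPI203 libraries lay close together and far below the DMSO libraries.

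MRPL12, a protein of the stalk that recruits translation factors and a partner of the mitochondrial RNA polymerase, stood at 36.6 and 35.7 FPKM with CPI203, against 126 and 101 FPKM with DMSO (log2 change -1.62 ± 0.12, adjusted p = 7.73e-06 by limma). MRPL11, which lies at the base of that stalk, stood at 34.9 and 35 FPKM, against 110 and 83.5 FPKM (-1.43 ± 0.11). A further 4 proteins with bacterial counterparts fell by similar amounts: MRPL15 by 1.48, MRPL23 by 1.47, MRPS15 by 1.44 and MRPL4 by 1.37 on the log2 scale. MRPL23 and MRPL4 are counterparts of proteins that line the exit tunnel in bacteria, and S15 of bacteria is among the first proteins to bind the small-subunit RNA. Altogether 18 members fell by 1 or more on this scale.

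Other members moved less. MRPS12, at the decoding centre, had a change of -1.14 ± 0.11 and MRPS16, counterpart of bacterial S16, one of -0.72 ± 0.07. MRPS27, an RNA-binding protein with pentatricopeptide repeats, changed by -0.63 ± 0.09, MRPS22 by -0.37 ± 0.07, MRPL13 by -0.50 ± 0.08 and MRPL44, which resembles RNase III, by -0.59 ± 0.09. MRPS30, which sits in the large subunit in spite of its name, changed by -0.51 ± 0.07.

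The 3 relatives of bacterial S18 differed in size of change. MRPS18B stood at 28.3 and 28.7 FPKM with CPI203, against 68.3 and 59.7 FPKM with DMSO (-1.14 ± 0.09). MRPS18C stood at 18.3 and 17.1 FPKM, against 32.0 and 30.3 FPKM (-0.78 ± 0.07). MRPS18A, a large-subunit protein, stood at 31.2 and 28.6 FPKM, against 43.9 and 34.2 FPKM (-0.37 ± 0.13, adjusted p = 0.0329 by limma); its call was lost when any of 3 libraries was left out. Whether the 3 changes differ from each other was not tested.

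Against this direction, MRPS6, counterpart of bacterial S6 (hg19 chr21:35445523-35515334), was higher with CPI203. It stood at 148 and 134 FPKM with CPI203, against 103 and 79.4 FPKM with DMSO (log2 change 0.63 ± 0.11, adjusted p = 0.00124 by limma). Its row overlaps another expressed row of the table. MRPS36 did not pass the test, at 16.3 and 16.9 FPKM, against 16.3 and 14.5 FPKM.

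Tolerant NOMO-1 cells had smaller changes. With CPI203, 34 of 77 members were lower and 7 higher than with DMSO, where 20.7% and 18.4% of all genes were lower and higher; the median of the members was -0.23 and that of all genes 0.00. Of the large subunit 24 of 49 were lower, and of the small subunit 10 of 27. MRPL3 was again among the largest falls, at 50.7 and 50.5 FPKM with CPI203, against 109 FPKM in each DMSO library (log2 change -1.09 ± 0.07, adjusted p = 8.05e-06 by limma), and it was the 1 member to fall by 1 or more. MRPS15 followed, at 297 and 280 FPKM, against 556 and 542 FPKM (-0.93 ± 0.08), and then MRPL15 (-0.80), MRPL23 (-0.62), MRPL34 (-0.53), MRPL19 (-0.50), MRPS18C (-0.50) and MRPS24 (-0.49).

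The stalk proteins also fell in tolerant cells. MRPL12 stood at 81.8 and 67.7 FPKM with CPI203, against 108 and 98.7 FPKM with DMSO (-0.47 ± 0.12), and MRPL11 at 73.9 and 73.2 FPKM, against 101 FPKM in each DMSO library (-0.45 ± 0.11). Smaller falls passed the test for MRPS12 (-0.35), MRPS30 (-0.34), MRPS18B (-0.30) and MRPS22 (-0.27). MRPS27, MRPS16, MRPL13, MRPL44 and MRPS18A did not pass, with changes between -0.19 and 0.12.

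The 7 members higher in tolerant cells with CPI203 included MRPS6 at 56.3 and 57.0 FPKM, against 34.5 and 33.6 FPKM with DMSO (0.72 ± 0.11, adjusted p = 0.00112 by limma). The rest were MRPS36 (0.39), MRPL53 (0.33), MRPS33 (0.33), MRPS14 (0.31), MRPL33 (0.30) and MRPL42 (0.24). Correcting for transcript length and GC content gave 13 members higher and 34 lower, beside 4463 genes higher and 3572 lower in all, where the uncorrected counts over all genes were 3086 and 3474. The counts here rest on every library: without tolerant DMSO replicate 1 the test called 10 members, without DMSO replicate 2 13, without CPI203 replicate 1 25 and without CPI203 replicate 2 15. MRPL3, MRPS15, MRPL15, MRPL23, MRPL19, MRPS18C, MRPS24 and MRPS6 passed each time. MRPL42 and MRPS22 lost the call each time, MRPL11, MRPS12, MRPS18B, MRPL33, MRPL53, MRPS14 and MRPS33 in 3 of the 4 fits, and MRPL12, MRPL34, MRPS30 and MRPS36 in 2.

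The difference between tolerant and parental NOMO-1 cells was tested directly, as CPI203 effect in tolerant cells minus CPI203 effect in parental cells. It was positive and called for 48 of 77 members and negative and called for 0; 57 members reached an unadjusted p below 0.05. Of all genes, 16.9% had a positive and 14.9% a negative called difference. The median of the members was 0.50 on the log2 scale, 73 of the 77 were positive, and the median of all genes was 0.04. Positive calls came from 31 of 49 large-subunit and 17 of 27 small-subunit members. Members with a bacterial counterpart passed in 35 of 47 cases and those without in 13 of 29, with MRPS18A and MRPS18B again counted among those without. Of the 63 members lower in parental cells, 34 were also lower in tolerant cells and 27 were not called there, and MRPL33 and MRPS33 were higher there.

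MRPL24 had the largest difference, 1.39 ± 0.14 (SE, adjusted p = 0.000188 by limma). In tolerant cells it stood at 37.3 and 34.6 FPKM with CPI203 and 46.9 and 46.5 FPKM with DMSO, where the parental values were 15.4 and 16.4 FPKM with CPI203 and 62.3 and 50.6 FPKM with DMSO. MRPL12 followed with 1.15 ± 0.17 and MRPS2, counterpart of the bacterial protein that binds late to the small subunit, with 1.00 ± 0.12. The values of MRPS2 in tolerant cells were 57.0 and 50.4 FPKM with CPI203 and 66.9 and 64.1 FPKM with DMSO. In parental cells they were 28.9 and 28.8 FPKM with CPI203 and 75.3 and 68.2 FPKM with DMSO, so that the CPI203 libraries of the populations lay well apart and the DMSO libraries close together.

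MRPL11 (0.98), MRPL4 (0.96), MRPL1 (0.95), MRPL55 (0.91) and MRPL23 (0.86) completed the 8 largest. Of the others named in parental cells, MRPS18B (0.84), MRPS12 (0.80), MRPL3 (0.66), MRPL44 (0.62), MRPS16 (0.59), MRPL13 (0.51) and MRPS27 (0.44) passed, and MRPS18A (0.49, adjusted p = 0.0676 by limma), MRPS36 (0.29), MRPS18C (0.28), MRPS30 (0.17) and MRPS22 (0.10) did not. The count was 31 without tolerant DMSO replicate 1, 29 without tolerant DMSO replicate 2 and 28 without parental CPI203 replicate 2, and up to 63 without parental DMSO replicate 2. MRPS27 lost its call in 5 of the 8 fits with a library left out, MRPL55 in 3 and MRPL13 in 1.

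**Figure D3:**
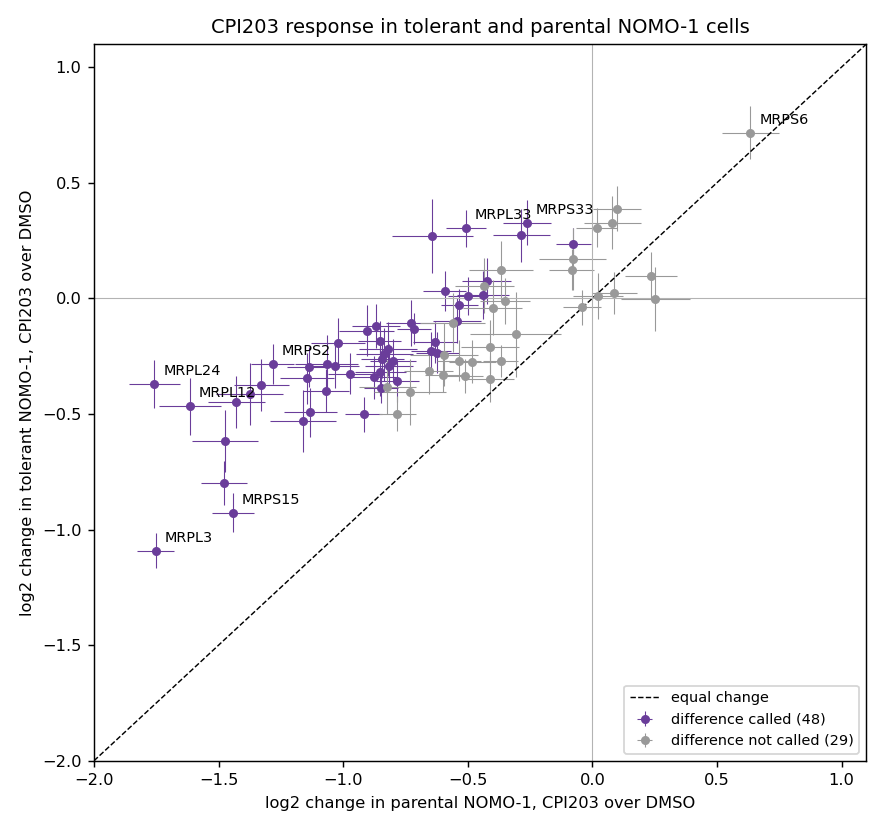
CPI203-minus-DMSO log2 change of each of the 77 rows in tolerant NOMO-1 cells (vertical) and parental NOMO-1 cells (horizontal); lines through the points are standard errors, the dashed line marks equal change, and purple points are the 48 members with a called difference. The purple points lie above the dashed line, MRPL24 farthest, and MRPS6 stands alone at the upper right with rises in both.

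In the plot of the responses of the NOMO-1 populations, MRPL3 is low in both and MRPL33 changes side, being lower with CPI203 in parental cells (211 and 193 FPKM, against 303 and 272 FPKM) and higher in tolerant cells (81.6 and 85.4 FPKM, against 66.7 and 68.2 FPKM). The myeloid markers differed between these groups too, but not in the same way as the members. Their sum was 145 to 163 FPKM with CPI203 and 679 to 770 FPKM with DMSO in tolerant libraries. In parental libraries it was 482 to 485 FPKM with CPI203 and 1811 to 1841 FPKM with DMSO. In the order given, 6, 6, 6 and 7 of 8 markers had a mean of 1 FPKM or more. The marker sum was thus far lower with CPI203 in both populations. With DMSO it was lower in tolerant than in parental cells, where the member sums were 4984 and 4605 FPKM. The part of these markers in the results on mitochondrial ribosomal proteins was not tested.

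In A375 cells, CPI203 was given for 6 h, so the values stand beside those of NOMO-1 without a comparison of size. In parental A375 cells 31 of 77 members were lower and 2 higher with CPI203 than with DMSO, where 21.4% and 15% of all 16935 genes were lower and higher. The median of the members was -0.32, that of all genes -0.04, and 68 of the 77 changes were negative. The falls again took in both subunits (21 of 49 and 10 of 27). MRPL3 led with 30.005 and 30.1 FPKM with CPI203, against 68.9 and 64.3 FPKM with DMSO (log2 change -1.12 ± 0.10, adjusted p = 2.4e-06 by limma). MRPS18B stood at 23.5 and 22.9 FPKM, against 52.1 and 42.6 FPKM (-0.99 ± 0.11). Both genes were low in each CPI203 library, with values far from those of the DMSO libraries.

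Further falls in parental A375 cells were MRPL23 (-1.02 ± 0.24), MRPL24 (-0.90 ± 0.16), MRPL15 (-0.90 ± 0.16), MRPL28 (-0.89 ± 0.19), MRPS30 (-0.85 ± 0.11) and MRPS15 (-0.84 ± 0.15). MRPL11 (-0.69), MRPS18C (-0.65), MRPL12 (-0.58, adjusted p = 0.0493 by limma) and MRPS27 (-0.43) also passed. MRPS18A, MRPS12, MRPS16, MRPL44, MRPL13, MRPS22 and MRPS36 did not, with changes between -0.36 and 0.08. MRPS6 was higher, at 194 and 183 FPKM, against 159 and 135 FPKM (0.36 ± 0.13, adjusted p = 0.0405 by limma), and so was the second MRPS17 row, at 1.43 and 0.976 FPKM, against 0.816 and 0.112 FPKM. The test called 19 members without DMSO replicate 1, 17 without CPI203 replicate 1, 17 without CPI203 replicate 2, and 37 without the 3 libraries that stood apart. MRPS6, MRPL12, MRPL11 and MRPS27 each lost the call in 3 of the 4 fits with a library left out, and MRPL3, MRPS18B, MRPL24 and MRPL15 in none.

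In A375 clone 1, 17 members were lower with CPI203 and 0 higher, where 13.6% of all genes were lower and 8.41% higher; 29 members reached an unadjusted p below 0.05 in limma, in either direction. The median was -0.24 for the members and -0.03 for all genes. MRPL15 stood at 24.2 and 25.7 FPKM with CPI203, against 43.5 and 44.96 FPKM with DMSO (log2 change -0.80 ± 0.16, adjusted p = 0.00276 by limma). MRPL3 stood at 42.4 and 43.7 FPKM, against 75.2 and 72.8 FPKM (-0.77 ± 0.10). MRPL27 (-0.77), whose bacterial counterpart reaches the peptidyl transferase centre, MRPS18B (-0.75), MRPS10 (-0.56), MRPL19 (-0.53), MRPL16 (-0.53) and MRPS15 (-0.52) followed, and MRPS27, MRPS18C and MRPL44 also passed. MRPL12 (-0.20), MRPL11 (-0.42) and MRPS6 (-0.01) did not. MRPL15, MRPL3, MRPL27, MRPS18B and MRPS10 kept the call with each library left out, and MRPL19, MRPS15, MRPS18C, MRPS27 and MRPL44 lost it each time. The count was 8 or 9 without any single library of the comparison, and 45 without the 3 libraries of other groups that stood apart. Length and GC correction called 1 member higher and 22 lower, beside 2793 genes higher and 2715 lower in all.

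In A375 clone 4, 26 members were lower with CPI203 and 0 higher, where 14.8% of all genes were lower and 8.86% higher; 42 members reached an unadjusted p below 0.05 in limma. The median was -0.37 for the members and -0.05 for all genes. MRPL15 stood at 25.7 and 26.3 FPKM with CPI203, against 64.5 and 41.3 FPKM with DMSO (log2 change -0.96 ± 0.16, adjusted p = 0.000844 by limma), and MRPL3 at 46.4 and 48.8 FPKM, against 95.2 and 75.5 FPKM (-0.82 ± 0.10). In both the CPI203 libraries were close together and the DMSO libraries apart. MRPS18B (-0.83), MRPS15 (-0.82), MRPL9 (-0.81), MRPL27 (-0.78), MRPL23 (-0.75), MRPL28 (-0.71), MRPS18C (-0.58) and MRPL44 (-0.41) also passed, and MRPL12 (-0.36), MRPL11 (-0.56) and MRPS6 (-0.32) did not. MRPL23, MRPL27, MRPL28, MRPS18C and MRPL44 lost the call in 2 of the 4 fits with a library left out. This count rests on the spread shared over all A375 groups and on single libraries. It was 0 when the 4 libraries of the comparison were fitted alone (14 at an unadjusted p below 0.05), 14 without DMSO replicate 1, 57 without DMSO replicate 2, 10 without CPI203 replicate 1 and 38 without the 3 libraries that stood apart. Length and GC correction called 30 members lower, beside 2787 genes higher and 2770 lower in all, and quantile normalization 29, beside 1991 and 2142.

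Neither A375 clone had a member whose CPI203 effect was called different from that in parental A375 cells by limma. For clone 1, 3 members reached an unadjusted p below 0.05, the median difference was 0.09, and 1.39% of all genes had a positive and 0.52% a negative called difference. For clone 4, 4 members reached it, the median was -0.03, and the shares of all genes were 1.59% and 0.697%. The members nearest to a call were MRPS30, with differences of 0.56 ± 0.16 in clone 1 (adjusted p = 0.118 by limma) and 0.64 ± 0.16 in clone 4 (adjusted p = 0.0562 by limma), and MRPS6 in clone 4, with -0.68 ± 0.18 (adjusted p = 0.0782 by limma); they were chosen after their values were seen. A miss of the threshold does not show that clones and parental cells responded alike. Without clone 4 DMSO replicate 1 the test called 2 members for clone 4, without DMSO replicate 2 1 member, and without the 3 libraries that stood apart it called 3 for clone 1 and 2 for clone 4.

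Across the 5 populations, 9 members were lower with CPI203 in each: MRPL3, MRPL15, MRPL16, MRPL22, MRPL45, MRPS15, MRPS18B, MRPS18C and MRPS35. This is 11.7% of the members, and 4.33% of the 14335 genes tested in both lines were lower in each population. MRPL22 is the counterpart of another exit-tunnel protein, and MRPL45 ties the mitoribosome to the inner membrane. A further 11 members were lower in 4 populations, 11 in 3, 16 in 2 and 17 in 1. No fall was called in any population for 13 (16.9%, against 55.7% of all genes): MRPL10, MRPL30, MRPL40, MRPL41, MRPL42, MRPL48, MRPL53, MRPS6, MRPS14, MRPS28, MRPS31, MRPS36 and the second MRPS17 row. Within A375, 14 members (18.2%) were lower in all 3 populations, against 9.68% of all genes, and 41 were not lower and not higher in any.

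The parental lines share no library. Their member-by-member CPI203 changes had a Pearson r of 0.724 and a Spearman rho of 0.682 over 77 rows, which are not independent of each other and share gene length, base composition and the estimation method. Of the 31 members lower in parental A375 cells, 30 (96.8%) were lower in parental NOMO-1 cells, and these 30 make up 47.6% of the 63 lower in NOMO-1. These 63 are 81.8% of all members, whatever their change in A375. Over the 14335 genes tested in both lines, r was 0.552 and rho 0.566, and 64.2% of the genes lower in parental A375 cells and 31.9% of all genes were lower in parental NOMO-1 cells. Of the 8 members lower in every population that have a promoter in the RefSeq table, 3 hold the GABPA letters, 3 the YY1 letters and 3 the E-box letters, and of the 9 lower in none that have one, 5, 1 and 0 do. The E-box windows of MRPL22 and MRPS18C printed above are 2 of those 3, and the other is that of MRPL45.

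**Figure D4:**
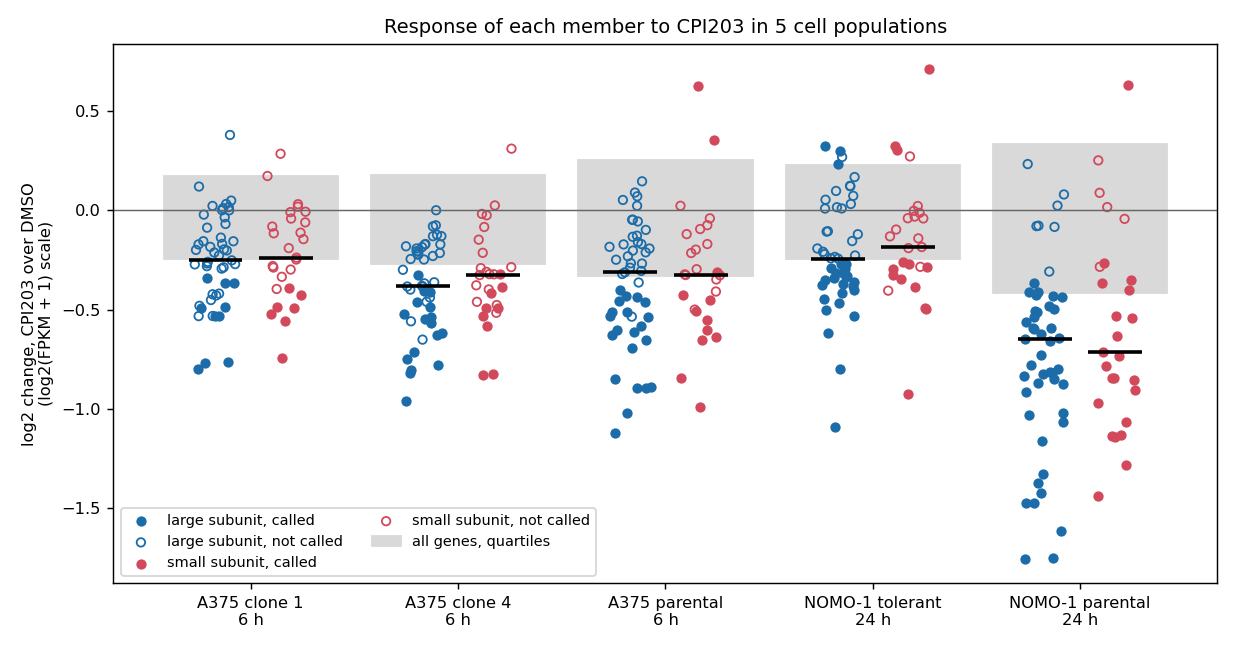
Log2 change with CPI203 against DMSO of each member in 5 cell populations, large subunit in blue and small subunit in red; filled points passed the test, black lines are subunit medians and grey boxes span the middle quartiles of all genes. Most points lie below 0 in each population, and in parental NOMO-1 cells the medians are -0.65 and -0.72. CPI203 was given for 6 h to A375 and for 24 h to NOMO-1 cells, so sizes are not compared between the lines.

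The points in the plot of changes in the 5 populations carry no names. By their values, the order of members was the same only in part between populations. MRPL24, for example, changed by -1.76 in parental and -0.37 in tolerant NOMO-1 cells (24 h) and by -0.90 in parental A375 cells (6 h), whereas MRPL3 was among the lowest in each.

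Tolerant and parental cells were also compared without CPI203. Tolerant NOMO-1 cells with DMSO had 23 members higher and 18 lower than parental NOMO-1 cells with DMSO, where 28.2% of all genes were higher and 36.2% lower. The median was -0.02 for the members and -0.07 for all genes. Single members differed by much more than the family. MRPS15 (hg19 chr1:36921318-36930038) stood at 556 and 542 FPKM in tolerant cells, against 93.7 and 81.8 FPKM in parental cells (log2 change 2.63 ± 0.08, adjusted p = 1.52e-08 by limma). MRPL33 (hg19 chr2:27994583-28210954) stood at 66.7 and 68.2 FPKM, against 303 and 272 FPKM (-2.07 ± 0.08, adjusted p = 5.03e-08 by limma). MRPS6 stood at 34.5 and 33.6 FPKM, against 103 and 79.4 FPKM (-1.38 ± 0.11), and MRPL37, a protein without a bacterial counterpart (hg19 chr1:54649713-54691137), at 188 and 180 FPKM, against 96.9 and 79.6 FPKM (1.06 ± 0.10). In all of these the libraries of the populations were far apart.

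Others higher in tolerant NOMO-1 cells were MRPS31 (0.99), a small-subunit protein without a bacterial counterpart, MRPL48 (0.84), MRPS26 (0.72), MRPL36 (0.71), MRPS30 (0.66) and MRPL34 (0.64), and MRPS22, MRPS27, MRPL3 and MRPS18C were higher by 0.57, 0.55, 0.28 and 0.27. Lower were MRPL53 (-0.78), MRPL20 (-0.70), MRPS21 (-0.61), MRPL55 (-0.60), MRPL50 (-0.55), MRPL16 (-0.48), MRPL44 (-0.47), MRPS12 (-0.29) and MRPS18B (-0.29). MRPL12, MRPL11, MRPL13, MRPS16, MRPS18A and MRPS36 did not pass. Correction for length and GC content gave 36 higher and 10 lower, with 6061 genes higher and 5297 lower in all and a median over all genes of 0.05, and the change of MRPL12 was then 0.17 (adjusted p = 0.0168 by limma), where it was -0.13 before. Without parental DMSO replicate 1 the split was 29 higher and 8 lower, without parental DMSO replicate 2 17 and 29, and the count fell to 26 and 25 without tolerant DMSO replicates 1 and 2.

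Genes near the 4 members that differed most were looked at after their values were seen. Within 500 kb of MRPS15, 8 other rows had a mean of at least 5 FPKM. Among them CSF3R, the receptor of granulocyte colony-stimulating factor and the adjoining gene, was higher in tolerant cells (3.28, adjusted p = 3.72e-09 by limma) and the other 7 were lower. Around MRPL37, 6 of 10 rows were higher and 1 lower, with a median of 0.76 and NDC1 highest at 1.70. Around MRPL33, 3 of 16 rows were higher and 9 lower, with RBKS, whose row overlaps MRPL33, at -2.28 and FOSL2 at -1.75. Around MRPS6, 0 of 8 rows were higher and 7 lower, among them SLC5A3, which lies within the MRPS6 row, at -0.49.

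**Figure D5:**
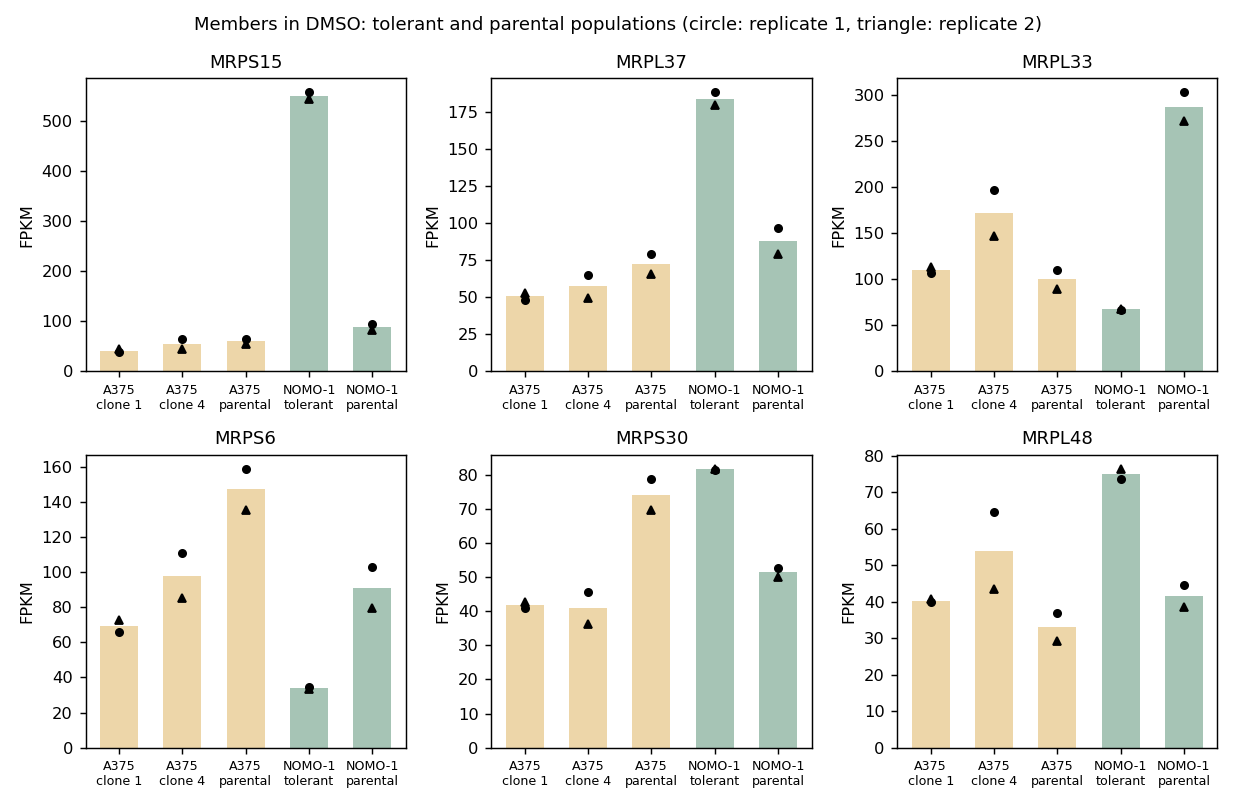
FPKM of 6 members in DMSO in A375 clone 1, clone 4 and parental cells and in tolerant and parental NOMO-1 cells; bars are means of 2 libraries, circles replicate 1 and triangles replicate 2. MRPS15 is at 556 and 542 FPKM in tolerant NOMO-1 cells and below 100 elsewhere, and MRPS30 is lower in both A375 clones than in parental A375 cells but higher in tolerant than in parental NOMO-1 cells.

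The panels for MRPS6 and MRPS30 in the plot of DMSO levels show members that were lower in both A375 clones than in parental A375 cells. In clone 1 with DMSO, 6 members were lower and 0 higher than in parental cells with DMSO, where 13.5% of all genes were lower and 11.7% higher; 14 members reached an unadjusted p below 0.05 in limma. The 6 were MRPS6 (65.9 and 72.9 FPKM in clone 1, against 159 and 135 FPKM in parental cells, log2 change -1.07 ± 0.13), MRPS30 (40.9 and 42.8 FPKM, against 78.6 and 69.6 FPKM, -0.81 ± 0.11), MRPS15 (-0.53), MRPS21 (-0.53), MRPL37 (-0.50) and MRPS31 (-0.41). Of these MRPS6 and MRPS30 passed with each library left out. The count was 3 without parental DMSO replicate 1, 12 without parental DMSO replicate 2 and 2 without clone 1 DMSO replicate 1. Without the 3 libraries that stood apart it was 22 higher and 7 lower, with length and GC correction 5 higher and 10 lower, and with quantile normalization 2 higher and 8 lower.

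In clone 4 with DMSO, 17 members were higher and 3 lower than in parental A375 cells with DMSO, where 15.4% of all genes were higher and 16% lower. The median was 0.25 for the members and 0.01 for all genes. MRPL17 stood at 165 and 109 FPKM in clone 4, against 73.1 and 64.8 FPKM in parental cells (log2 change 0.96 ± 0.16), MRPL33 at 197 and 147 FPKM, against 110 and 89.9 FPKM (0.77 ± 0.13), and MRPL48 at 64.6 and 43.4 FPKM, against 36.8 and 29.4 FPKM (0.67 ± 0.15). MRPL23, MRPL14, MRPL36, MRPL18, MRPL43, MRPS18C, MRPL13 and MRPL3 were also higher. The 3 lower were MRPS30 (45.7 and 36.3 FPKM, against 78.6 and 69.6 FPKM, -0.85 ± 0.11), MRPS6 (-0.59) and MRPS31 (-0.46). Without clone 4 DMSO replicate 1 the split was 4 higher and 6 lower, without parental DMSO replicate 2 4 and 3, and with length and GC correction 22 and 9. Without clone 4 DMSO replicate 2 the test called 47 members, and with the 4 libraries fitted alone it called 0 (7 at an unadjusted p below 0.05 in limma). Sums of marker genes also differed in the DMSO comparisons of both clones. The melanocyte markers summed to 226 to 249.02 FPKM in clone 1, 205 to 245 FPKM in clone 4 and 384 to 386 FPKM in parental cells, the myeloid markers to 37.8 to 38.5, 32.6 to 42.6 and 5.91 to 6.08 FPKM, and the epithelial markers to 10.1 to 12.6, 21.4 to 26.3 and 3.03 to 4.19 FPKM in the same order. These are 3 of 8 melanocyte markers at a mean of 1 FPKM or more in each, 2, 2 and 1 of 8 myeloid and 1 of 4 epithelial markers in each. Over the A375 libraries only CD33 and LYZ of the myeloid markers and KRT14 of the epithelial ones had a median of 1 FPKM or more. No other myeloid marker passed 0.681 FPKM (ITGAM) in any A375 library, and no other epithelial marker 0.228 FPKM (KRT5). The sums thus rest on few genes and do not show a shift of the whole lists. The part of these markers in the results was not tested.

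Untreated cells were compared in the same way. In untreated clone 1, 27 members were lower and 5 higher than in untreated parental A375 cells, where 31% of all genes were lower and 17.1% higher, and the median was -0.18 for the members and -0.12 for all genes. MRPL24 stood at 45.9 FPKM in each clone 1 library, against 104 and 100 FPKM in parental cells (log2 change -1.13 ± 0.16, adjusted p = 8.24e-05 by limma). MRPS15 stood at 25.5 and 23.0 FPKM, against 52.5 and 53.7 FPKM (-1.10 ± 0.15), and MRPS30 at 32.0 and 27.1 FPKM, against 64.0 and 63.3 FPKM (-1.09 ± 0.11). In these 3 members the clone 1 libraries were far below the parental ones. MRPL15 (-0.97), MRPL37 (-0.93), MRPS6 (-0.87), MRPL9 (-0.87) and MRPS18B (-0.80) followed, and MRPL3, MRPS18A and MRPS22 were also lower. Higher were MRPL48 (0.83), MRPL54 (0.67) and MRPS33 (0.51), which have no bacterial counterpart, MRPL33 (0.50), which has one, and the second MRPS17 row (0.72), a row at 1.69 and 1.31 FPKM in clone 1, against 0.391 and 0.643 FPKM in parental cells. Quantile normalization, which moved the median of all genes from -0.12 to 0.03, gave 15 members higher and 27 lower and 4302 genes higher and 4235 lower in all. Median-ratio scaling gave 11 and 23 members, and correction for length and GC content 18 and 24.

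In untreated clone 4, 21 members were lower and 13 higher than in untreated parental A375 cells, where 30.4% of all genes were lower and 20.7% higher, and the median was -0.06 for the members and -0.08 for all genes. MRPS30 stood at 27.5 and 26.4 FPKM in clone 4, against 64.0 and 63.3 FPKM in parental cells (log2 change -1.21 ± 0.11, adjusted p = 1.12e-06 by limma). MRPS15 (-1.14), MRPS6 (-1.14), MRPS18B (-0.83), MRPL28 (-0.74), MRPL37 (-0.73), MRPL15 (-0.71) and MRPL20 (-0.65) followed, with smaller falls in MRPS27, MRPS22 and MRPL3. MRPL48 stood at 58.6 and 59.8 FPKM, against 28.2 and 26.8 FPKM (1.08 ± 0.15, adjusted p = 4.64e-05 by limma), and MRPL17 at 88.2 and 91.7 FPKM, against 53.1 and 47.9 FPKM (0.82 ± 0.16). MRPL55 (0.81), MRPL54 (0.72), MRPL33 (0.69), MRPL14 (0.56), MRPS33 (0.50) and MRPL18 (0.47) were higher as well. The count was 21 without parental untreated replicate 1. Length and GC correction gave 22 members higher and 23 lower, and quantile normalization 16 and 23, beside 4789 genes higher and 4453 lower in all. The clones share the parental libraries, so their likeness to each other is not counted as support. Sums of marker genes differed here as well. The melanocyte markers summed to 182 to 203 FPKM in untreated clone 1, 182 to 194 FPKM in untreated clone 4 and 406 to 416 FPKM in untreated parental cells. The myeloid markers summed to 22.6 to 23.5, 23.8 to 24.7 and 3.73 to 3.82 FPKM and the epithelial markers to 1.63 to 1.80, 3.44 to 3.99 and 0.507 to 0.520 FPKM in the same order. As said above, only CD33, LYZ and KRT14 of the myeloid and epithelial markers had a median of 1 FPKM or more in A375 libraries. The part of these markers in the comparison was not tested.

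DMSO libraries at 6 h differed from untreated libraries at 0 h, which were set against each other in A375 cells only. In parental cells 21 members were higher with DMSO and 0 lower, where 12.2% of all genes were higher and 10.3% lower; 37 members reached an unadjusted p below 0.05 in limma. The median was 0.34 for the members and 0.00 for all genes. MRPL18 stood at 62.1 and 55.3 FPKM with DMSO, against 33.1 and 32.6 FPKM untreated (log2 change 0.82 ± 0.11, adjusted p = 0.000297 by limma), followed by MRPS12 (0.72), MRPL27 (0.68), MRPL15 (0.66), MRPL52 (0.65), MRPL16 (0.60), MRPS26 (0.58) and MRPS17 (0.57). The call count rests on few libraries. It was 5 and 4 without untreated replicates 1 and 2, 3 without DMSO replicate 1, and 34 without the 3 libraries that stood apart, and median-ratio scaling gave 9 members higher and 1 lower, with 1652 genes higher and 2128 lower in all.

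In clone 1, 43 members were higher with DMSO and 1, MRPS33, lower, where 30.3% of all genes were higher and 12.9% lower. The median was 0.46 for the members and 0.15 for all genes. MRPL15 stood at 43.5 and 44.96 FPKM with DMSO, against 15.8 and 15.6 FPKM untreated (log2 change 1.44 ± 0.16, adjusted p = 1.32e-05 by limma), MRPL11 at 53.9 and 59.2 FPKM, against 21.6 and 22.9 FPKM (1.31 ± 0.20), and MRPL3 at 75.2 and 72.8 FPKM, against 37.0 and 36.2 FPKM (1.00 ± 0.10). MRPL23 (1.18), MRPL9 (0.96), MRPL24 (0.93), MRPL18 (0.88) and MRPL46 (0.86) were higher too. The count was 27 without clone 1 DMSO replicate 2. In clone 4, 56 members were higher and 1, the second MRPS17 row at about 1 FPKM, lower, where 28.3% of all genes were higher and 13% lower. The medians were 0.62 and 0.11. MRPL23 (1.41), MRPL15 (1.39), MRPL11 (1.39), MRPL24 (1.22), MRPS15 (1.17), MRPL36 (1.13), MRPL9 (1.09) and MRPL3 (1.05) rose most. The count was 36 without clone 4 DMSO replicate 1 and 21 with the 4 libraries of the comparison fitted alone.

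The background moved in these comparisons as well. Quantile normalization took the median of all genes from 0.15 to 0.01 in clone 1 and from 0.11 to 0.00 in clone 4. The members' medians were then 0.27 and 0.42. In clone 1, 32 members were then higher and 3 lower, beside 3769 genes higher and 3418 lower in all, and in clone 4, 49 and 2, beside 3517 and 3324. The summed level of the members in untreated cells was 2779 ± 58.1 FPKM in clone 1, 3030 ± 79.5 FPKM in clone 4 and 3220 ± 91.7 FPKM in parental cells (SD, n = 2 each). With CPI203 it was 3217 ± 16.3 FPKM in clone 1, 3613 ± 501 FPKM in clone 4 and 3109 ± 5.0 FPKM in parental cells. Time (6 h against 0 h) and the solvent both differ between DMSO and untreated libraries and cannot be told apart.

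Counts for other genes of the same pathway are to be read against the shares of all genes given above for each comparison: 33% lower and 27% higher with CPI203 in parental NOMO-1 cells, 20.7% and 18.4% in tolerant NOMO-1 cells, and 21.4% and 15% in parental A375 cells. The proteins of the cytosolic ribosome, 77 of them tested, had 51 lower with CPI203 in parental NOMO-1 cells (median -0.30), 1 in tolerant NOMO-1 cells (0.00), 0 in parental A375 cells (1 at an unadjusted p below 0.05 in limma, median -0.09), 0 in clone 1 (also 1 unadjusted) and 1 in clone 4. Nuclear genes of the respiratory chain, 79 tested, had 50 lower and 1 higher in parental NOMO-1 cells (median -0.39), 8 lower and 5 higher in tolerant NOMO-1 cells and 3 lower and 3 higher in parental A375 cells. Among them ATP5G1, which encodes subunit c of ATP synthase, averaged 32.3 FPKM with CPI203 and 86.5 FPKM with DMSO in parental NOMO-1 cells (log2 change -1.39). The median fall of the mitochondrial ribosomal proteins, -0.65 there, was thus below those of these families, without a test of that difference.

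Factors that assemble the mitoribosome or modify its RNA fell with it in parental NOMO-1 cells, 19 lower and 3 higher of 26 tested. MRM1, a methyltransferase of the large ribosomal RNA, averaged 2.31 FPKM with CPI203 and 9.77 FPKM with DMSO (-1.70), and DDX28, an RNA helicase, 4.97 and 14.6 FPKM (-1.39). In tolerant NOMO-1 cells 7 of 26 were lower and 4 higher, not far from the shares of all genes, with YBEY (0.82) among those higher, and in parental A375 cells 8 were lower and 5 higher, NOA1 (0.71) among those higher. Of 7 mitoribosomal proteins outside the symbol rule, 6 were lower in parental NOMO-1 cells, GADD45GIP1 by the most (-1.204) and MRP63, the gene now called MRPL57, by -0.47; 3 were lower in tolerant NOMO-1 cells. In parental A375 cells CHCHD1 (-0.67) and GADD45GIP1 (-0.62) were lower and DAP3 higher (0.27).

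Among translation factors, 10 of 13 were lower and 2 higher in parental NOMO-1 cells, with TACO1 at -0.98 and MRRF, the ribosome recycling factor, at -0.87. In tolerant NOMO-1 cells 6 were lower and 1 higher, and in parental A375 cells 6 and 3. Of 17 mitochondrial aminoacyl-tRNA synthetases, 12 were lower in parental NOMO-1 cells (EARS2 at -1.19), 2 lower and 3 higher in tolerant NOMO-1 cells, and 9 lower and 1 higher, MARS2 (0.90), in parental A375 cells. Genes of mitochondrial DNA upkeep and transcription had 5 of 9 lower and 2 higher in parental NOMO-1 cells. C10orf2, which encodes the helicase Twinkle, averaged 3.52 FPKM with CPI203 and 13.6 FPKM with DMSO there (-1.70), whereas POLG2 was higher (0.81).

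Nuclear regulators of mitochondrial genes had 5 of 8 lower in parental NOMO-1 cells and 5 of 8 in tolerant NOMO-1 cells. MYC stood at 14.5 and 16.4 FPKM with CPI203, against 72.1 and 64.7 FPKM with DMSO, in parental NOMO-1 cells (log2 change -2.08 ± 0.09, adjusted p = 3.96e-07 by limma). In tolerant NOMO-1 cells it stood at 115 and 104 FPKM with CPI203, against 155 and 150 FPKM with DMSO (-0.48 ± 0.09), and the difference between the populations was 1.60 ± 0.13. PPRC1, a coactivator related to PGC-1, had a difference of 1.28. In A375 cells MYC was higher with CPI203 in clone 1 (21.5 and 22.9 FPKM, against 9.67 and 10.9 FPKM, 1.04 ± 0.10) and clone 4 (0.71 ± 0.10) and did not pass in parental cells (10.1 and 9.11 FPKM, against 8.65 and 8.87 FPKM), whereas mitochondrial ribosomal protein genes were called lower in all 3. Whether MYC has a part in the changes of the members was not tested.

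In the test of tolerant minus parental NOMO-1 effects, 16.9% of all genes had a positive and 14.9% a negative called difference. The other lists had positive differences too, though the cytosolic ribosomal proteins were not far above the share of all genes. Positive differences were called for 35 of 79 respiratory chain genes (median 0.37), 18 of 77 cytosolic ribosomal proteins (0.30), 14 of 26 assembly factors (0.40), 7 of 13 translation factors (0.40) and 9 of 17 aminoacyl-tRNA synthetases (0.43), beside the 48 of 77 members (0.50). Among them were MRM1 (1.26), EARS2 (1.199), ATP5G1 (1.103) and DDX28 (1.08). Between tolerant and parental NOMO-1 cells with DMSO, 36.2% of all genes were lower and 28.2% higher. There, by contrast with the members (23 higher and 18 lower), 44 respiratory chain genes were lower and 6 higher (median -0.26). Of the cytosolic ribosomal proteins, 42 were lower and 7 higher (-0.24).

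In the A375 clones, 4 of 26 assembly factors were lower and 3 higher with CPI203 in clone 1, where 13.6% of all genes were lower and 8.41% higher. In clone 4, 9 were lower and 3 higher, where the shares were 14.8% and 8.86%. NOA1, a GTPase needed for the small subunit, was higher by 0.66 in clone 1, 0.54 in clone 4 and 0.71 in parental cells, and TACO1, an activator of COX1 translation, was lower, with changes of -0.91 in clone 1, -0.90 in clone 4 and -0.98 in parental cells. The members themselves had no rise called in either clone.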

How the data were processed

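The deposited table holds FPKM values per gene, estimated by the authors with Cufflinks (version not given) from reads aligned with TopHat 1.4.1 to hg19, per the submitters' processing notes. Per the labels' protocols, RNA was taken with TRIzol or RNeasy, without saying which for which sample. Whether counting used strand is not given in the sources used here.

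Here, log2(FPKM + 1) values (pseudocount 1) were analysed in R 4.3.3 (limma 3.58.1), using a trended, robust variance prior and a mean for each of 9 groups of 18 A375 libraries (9 residual degrees of freedom) and of 4 groups of 8 NOMO-1 libraries (4). Genes needed at least 1 FPKM in at least 2 libraries, and 36 genes with missing NOMO-1 values were kept out of that line. All 16 comparisons were two-sided, Benjamini-Hochberg adjusted over all genes tested, and called at an adjusted p below 0.05. The fits were tested on simulated data. Columns of the table were matched to samples by name. The 4 untreated clone libraries carry a parental clone entry in 1 label field; their titles were followed.

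Genes named in each comparison were up to 8 called rises and 8 called falls of largest size with a mean of at least 5 FPKM and no overlap of libraries, and a fixed set of members. Each line's 4 highest and 4 lowest members are named, and other genes of the pathway are among the 4 of smallest adjusted p in their list. The members and lists were chosen with earlier results of these data known. Alternatives were another pseudocount, filters, scalings, a length and GC correction, a replicate block, fits of the compared libraries alone and leaving out libraries. Leaving out 3 libraries and scaling to all genes were added after seeing the data. With no counts, depth is unknown and no counting interval can be given. Figures were drawn with matplotlib 3.10.9.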

Additional observations from a re-analysis of the deposited data

Results flagged for a closer look

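The CPI203 effect differed between tolerant and parental NOMO-1 cells by a test of the difference itself (limma, adjusted p below 0.05) for 48 of 77 members. All had a positive difference, that is, a smaller fall or a larger rise in tolerant cells. Of all genes, 16.9% had a positive and 14.9% a negative called difference. Among the named members the difference on the log2 scale was 1.39 for MRPL24, 1.15 for MRPL12, 1.00 for MRPS2, 0.98 for MRPL11, 0.96 for MRPL4, 0.95 for MRPL1, 0.91 for MRPL55 and 0.86 for MRPL23. It was 0.84 for MRPS18B, 0.80 for MRPS12, 0.66 for MRPL3, 0.62 for MRPL44, 0.59 for MRPS16, 0.51 for MRPL13 and 0.44 for MRPS27. Some of these calls, that of MRPS27 among them, were lost when a library was left out, as given in the report. The sum of the myeloid markers also differed between the populations and with CPI203, as given in the report, and its part in these differences was not tested.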

How the results depend on the processing

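Most counts of called members moved with the libraries used. The ratio of summed levels, CPI203 over DMSO, stayed within its replicate SD under the alternatives, but in clone 4 (0.759) it was 0.907 without DMSO replicate 1 and 0.653 without DMSO replicate 2, and in parental A375 (0.774) 0.849 and 0.712 without those replicates. Leaving out 1 library at a time gave 17 to 33 calls for CPI203 in parental A375 (33 in the full fit), 8 to 9 in clone 1 (17), 10 to 57 in clone 4 (26), 56 to 66 in parental NOMO-1 (64) and 10 to 25 in tolerant NOMO-1 (41). For the difference of CPI203 effects it gave 0 for clone 1 (0), 0 to 2 for clone 4 (0) and 28 to 63 for NOMO-1 (48). For tolerant against parental cells it gave 26 to 28 in untreated clone 1 (32), 21 to 26 in untreated clone 4 (34), 2 to 12 in clone 1 with DMSO (6), 7 to 47 in clone 4 with DMSO (20) and 25 to 46 in NOMO-1 with DMSO (41). For DMSO against untreated cells it gave 3 to 26 in parental cells (21), 27 to 34 in clone 1 (44) and 36 to 65 in clone 4 (57). Such fits have fewer samples, and a lone sample was assumed to vary like the other groups. Fitting only the compared libraries gave 45 calls for CPI203 in clone 1, 0 in clone 4, 52 and 54 in untreated clones 1 and 4, 2 and 0 in clones 1 and 4 with DMSO, and 4 and 21 for DMSO against untreated in parental cells and clone 4. Without the 3 libraries that stood apart it was 45 for CPI203 in clone 1, 3 and 2 for the differences of clones 1 and 4, 55 and 53 in untreated clones 1 and 4, 29 in clone 1 with DMSO and 34 for DMSO in parental cells. With no filter it was 11 for CPI203 in clone 1, 19 in tolerant NOMO-1, 11 in clone 4 with DMSO and 9 for DMSO in parental cells. Quantile normalization gave 1 and 2 for the differences of clones 1 and 4 and 10 in clone 1 with DMSO. Median-ratio scaling gave 1 for the difference of clone 4 and 10 for DMSO in parental cells. Length and GC correction gave 1 and 2 for the differences of clones 1 and 4, 15 in clone 1 and 31 in clone 4 with DMSO, and turned MRPL12 in tolerant NOMO-1 with DMSO to 0.17 (adjusted p = 0.0168 by limma). The causes of these changes were not tested. A replicate block gave 1 call for the difference of clone 4 and kept the other counts within 1.5 times. The labels do not say that replicate numbers pair samples. The correlations of deviations ran from -0.73 to 0.72 in A375 and were 0.39, 0.23 and 0.02 in NOMO-1, where replicate 1 had the higher member sum in all 4 groups. The members are shorter than most genes (median 1532 bases, against 2660 over all A375 genes tested), and MRPL45 and MRPS21 had no length value. Over the named members, 4435 of the alternative values stayed on their side of the threshold, 308 lost the call and 111 gained one. Direction turned round in 1 value that was called in the main fit or in the alternative. Changes of direction in values called in neither were not counted apart and are among the 4435.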
